A study of Mus musculus with 12 samples.

Results

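A set of 10 genes of bile duct and simple epithelium was followed across liver RNA sequencing libraries of mice labelled with or without a liver knockout of Hnf4a and fed chow or a high fat diet. The genes were picked by symbol, with earlier results of these data known, and the rule sets no threshold on a measured value. It holds the keratins Krt8, Krt18, Krt19, Krt7 and Krt23, the surface and junction genes Epcam, Cldn7 and Tspan8, the transcription factor gene Sox9 and the secreted protein gene Spp1. All 10 were found among the 35275 genes of the deposited table, and 9 of them passed the abundance filter that left 12251 genes for testing (a mean of at least 0.5 FPKM, which counts fragments per length of gene and depth of library). Krt7, with a mean of 0.412 FPKM, did not pass and is given as values.

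The 12 libraries fall into 4 groups of 3, which the series calls biological replicates. KOHF stands for libraries labelled Hnf4a liver knockout on the high fat diet, WTHF for wild type on that diet, KOVC for the knockout on vivarium chow and WTVC for wild type on chow. The sources used here do not give age, sex, the driver of the knockout or whether each library is 1 animal, so the p-values below measure the spread between libraries. Depth was 15705196 to 20311766 reads on genes.

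The labels were checked first. On the high fat diet Hnf4a had 108, 98.8 and 138 FPKM in KOHF, against 133, 116 and 120 FPKM in WTHF. On chow it had 158, 132 and 130 FPKM in KOVC, against 126, 75.8 and 0.0973 FPKM in WTVC, so its transcript was not clearly lower under the knockout label. A value for the whole gene cannot show the loss of single exons, so KO and WT below mean the libraries labelled so. The libraries WTVC3 and WTVC2 stood apart from the rest. WTVC3 held 11.9 FPKM of the hepatocyte gene Alb and 2339 FPKM of the brown fat gene Ucp1, and WTVC2 held 7604 FPKM of Alb, against 12811 to 41503 FPKM in the other 10 libraries. Each comparison was therefore fitted with all 12 libraries and with the 10 left without WTVC2 and WTVC3. In the fit with 10, WTVC1 alone stands for its group and is assumed to vary like the others.

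Keratins assemble as pairs of a type II and a type I protein. Krt8 (type II) and Krt18 (type I) form the only keratin filaments of normal hepatocytes, whereas cells of the bile duct, the cholangiocytes, add Krt7 and Krt19. Cholangiocytes also carry the adhesion protein EpCAM and the transcription factor SOX9, and they secrete osteopontin, the product of Spp1. In injured liver, duct-like cells that express these genes can spread from the portal tracts, a change known as the ductular reaction, and hepatocytes can switch on Sox9, Spp1 and Krt23. Bile duct cells are few in a whole liver, and in bulk RNA fewer cells of a type and less RNA per cell cannot be told apart.

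Start regions of 4 genes are shown, because Krt8 and Krt18 varied together across the libraries and so did Epcam and Cldn7. RefSeq windows on GRCm38.p6 were available for 8 of the 10 genes, each from 250 bases before to 50 bases after a transcript start. Capitals mark matches to the motifs searched, and each sequence is written 5′ to 3′ on the strand of its gene. Krt8 lies at chr15:102004293-102004592 (minus strand), Krt18 at chr15:102027966-102028265 (plus strand), Epcam at chr17:87635729-87636028 (plus strand) and the first of the windows of Cldn7 at chr11:69964529-69964828 (plus strand).
Krt8: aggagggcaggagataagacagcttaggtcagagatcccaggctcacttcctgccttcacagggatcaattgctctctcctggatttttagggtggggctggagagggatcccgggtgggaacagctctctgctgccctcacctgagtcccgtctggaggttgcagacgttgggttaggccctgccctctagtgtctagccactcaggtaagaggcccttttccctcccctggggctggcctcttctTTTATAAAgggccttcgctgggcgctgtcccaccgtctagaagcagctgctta
Krt18: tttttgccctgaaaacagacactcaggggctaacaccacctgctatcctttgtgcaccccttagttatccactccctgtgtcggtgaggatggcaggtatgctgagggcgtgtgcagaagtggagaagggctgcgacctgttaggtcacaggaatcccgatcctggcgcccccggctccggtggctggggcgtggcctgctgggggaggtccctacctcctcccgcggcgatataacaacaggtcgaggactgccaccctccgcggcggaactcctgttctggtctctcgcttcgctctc
Epcam: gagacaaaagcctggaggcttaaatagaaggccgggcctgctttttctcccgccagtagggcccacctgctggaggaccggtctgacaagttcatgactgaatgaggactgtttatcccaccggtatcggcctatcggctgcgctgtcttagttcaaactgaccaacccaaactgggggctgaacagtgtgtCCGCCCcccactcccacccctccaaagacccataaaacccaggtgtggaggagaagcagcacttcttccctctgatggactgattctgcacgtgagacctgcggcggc
Cldn7: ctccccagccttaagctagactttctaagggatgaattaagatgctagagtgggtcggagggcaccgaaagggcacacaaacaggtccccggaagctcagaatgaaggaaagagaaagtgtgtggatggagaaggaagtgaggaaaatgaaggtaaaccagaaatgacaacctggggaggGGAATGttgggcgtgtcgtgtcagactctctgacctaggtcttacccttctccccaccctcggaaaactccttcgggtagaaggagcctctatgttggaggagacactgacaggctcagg

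In all, 6 motifs were searched on both strands. They were the TATA box TATAAA, the GC box GGGCGG, the AP-1 site TGANTCA, the HNF4A core CAAAGTCCA, the HNF1 half-site GTTAAT and the TEAD site GGAATG. Krt8 held TATAAA at −1 on its own strand and at −3 on the other, in overlapping letters that appear as 1 run of capitals, and 13.6% of all 32851 windows hold this motif. Krt18 held none of the 6. Epcam held the GC box on the opposite strand at −58, which 35.7% of windows hold. The Cldn7 window shown held the TEAD motif at −70, which 14.7% of windows hold, and the second window of Cldn7 held a GC box on the opposite strand at −6. Of the windows not shown, that of Krt7 held 4 GC boxes and 1 of Spp1 held TATAAA at −211. None of the 10 windows of the 8 genes held the HNF4A core, which 0.475% of windows hold. The motif for AP-1 occurs in 7.81% of windows and the HNF1 half-site in 7.10%, and of these 10 windows the same one of Spp1 held the half-site, at −194.

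Krt8 and Krt18 were by far the most abundant of the 10 genes, at a mean of 194 and 196 FPKM over the 10 libraries. On that scale each stood above 96.6% of the genes tested. The genes are neighbours on chromosome 15, where Krt8 (ENSMUSG00000049382, protein-coding) runs from 101996711 to 102004342 on the minus strand and Krt18 (ENSMUSG00000023043, protein-coding) from 102028216 to 102032026 on the plus strand. Their starts point away from each other across 23874 bases.

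Krt18 stood at 272, 309.7 and 193 FPKM in KOHF and at 156, 168 and 168 FPKM in KOVC. Every KOHF library was above every KOVC library, and the KOVC libraries lay close together. The log2 difference was 0.63 on the log2(FPKM + 1) scale used throughout. It did not pass in limma with all 12 libraries (SE 1.70, adjusted p = 0.967) nor with 10 (SE 0.277, adjusted p = 0.171). In WTHF Krt18 stood at 111, 167 and 246 FPKM, so KOHF and WTHF overlapped. The log2 difference was 0.61, with a 95% interval of −3.15 to 4.37 with 12 libraries. With 10 libraries the interval was −0.02 to 1.23 (limma, adjusted p = 0.411).

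Krt8 followed it closely, at 259, 360.5 and 147 FPKM in KOHF, 91.5, 197 and 296 FPKM in WTHF and 136, 167 and 159.7 FPKM in KOVC. KOHF overlapped both other groups, since KOHF3 lay below KOVC2 and KOVC3. The difference between KOHF and KOVC was 0.64 on the log2 scale, with a 95% interval of −2.77 to 4.04 with 12 libraries. With 10 libraries the interval was −0.32 to 1.60 (limma, adjusted p = 0.356).

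The chow-fed wild-type group was widest for both genes. Krt18 held 167, 667 and 0.346 FPKM and Krt8 held 132, 474 and 0.940 FPKM in WTVC1 to WTVC3. WTVC2 was the highest of all 12 libraries and WTVC3 the lowest. With this spread the difference between KOVC and WTVC was 1.63 for Krt18 with 12 libraries (95% interval −2.13 to 5.39) and −0.03 with 10 (95% interval −0.91 to 0.85).

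**Figure D1:**
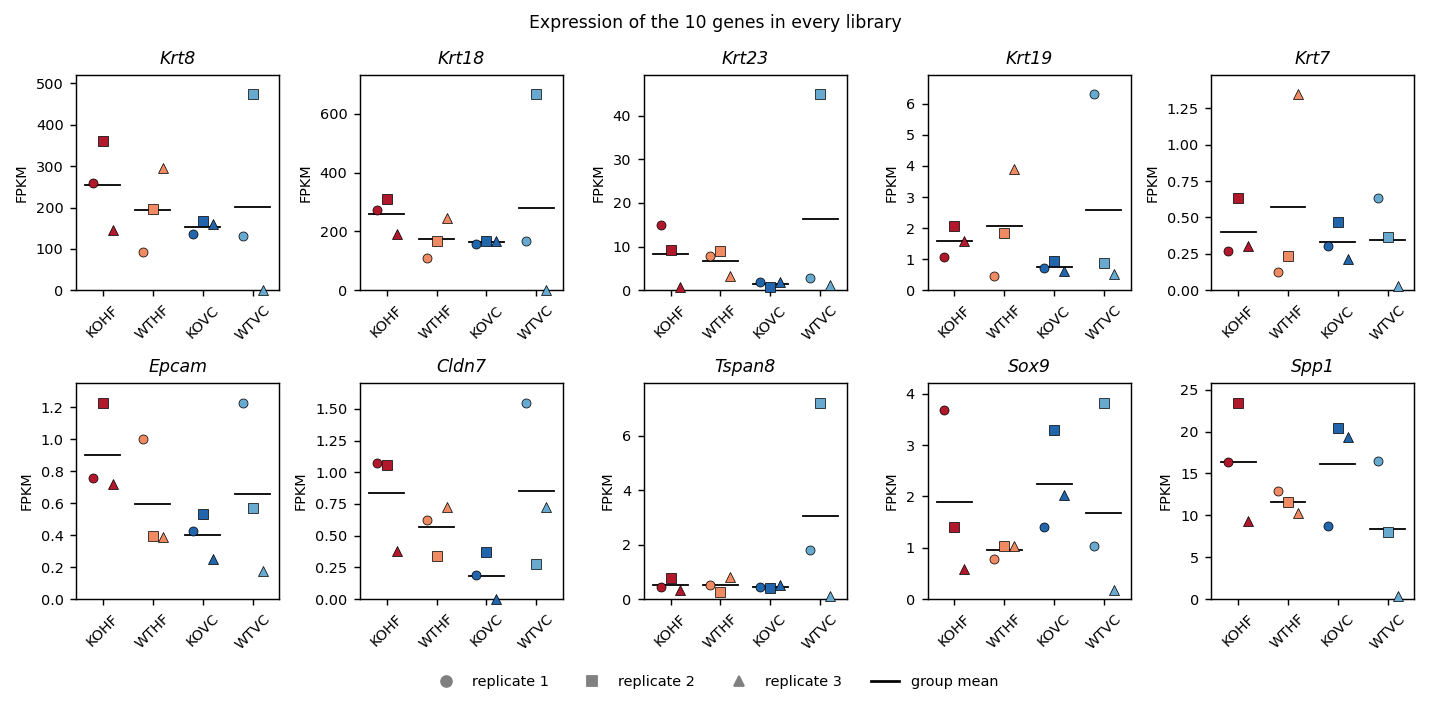
FPKM of each of the 10 genes (1 panel each, own axis) in every library of KOHF, WTHF, KOVC and WTVC, with the replicate number as the marker shape and the group mean as a line. Krt8, Krt18, Krt23, Tspan8 and Sox9 peak in WTVC2, and Krt18, Krt19, Epcam and Cldn7 lie higher in all KOHF libraries than in any KOVC library.

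The filament partners stayed close to equal amounts per kilobase. The log2 ratio of Krt8 to Krt18 in FPKM was −0.07, 0.22 and −0.39 in KOHF, −0.28, 0.23 and 0.27 in WTHF, −0.20, −0.01 and −0.07 in KOVC and −0.35, −0.49 and 1.44 in WTVC. Its median was −0.07, and 11 of 12 libraries lay within −0.49 and 0.27. The exception was WTVC3, where Krt18 rested on 8 reads and Krt8 on 28. Across the 10 libraries the pair had a Pearson correlation of 0.94 on the log2 scale, given as a description.

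**Figure D2:**
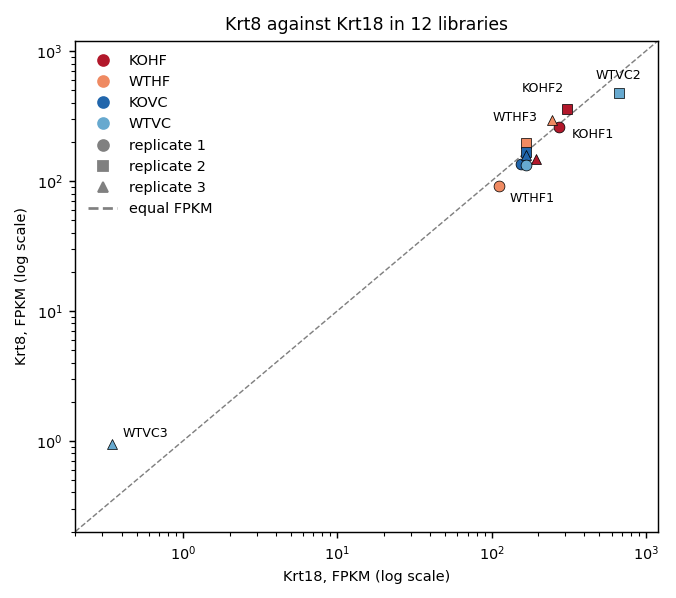
Krt8 against Krt18 in FPKM, both axes logarithmic, 1 point per library, coloured by group with the replicate number as the marker shape, and a dashed line of equal FPKM. Points lie near the line up to 667 FPKM of Krt18 in WTVC2, except WTVC3 (0.346 FPKM of Krt18), which lies above it.

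Krt23, a type I keratin that is low in healthy liver and switched on in injured liver, was the most variable of the set. It stood at 14.98, 9.20 and 0.724 FPKM in KOHF, 7.92, 8.99 and 3.20 FPKM in WTHF, 1.98, 0.818 and 1.79 FPKM in KOVC and 2.88, 44.9 and 1.12 FPKM in WTVC. The WTHF libraries were all above the KOVC libraries, 2 of 3 KOHF libraries were as well, and KOHF3 held the lowest value of all 12. Since WTHF and KOVC differ in both genotype label and diet, their separation cannot be read as either effect. The share of all genes that separate these groups was not counted. The log2 difference between KOHF and KOVC was 1.41 (SE 1.07 with 12 libraries, adjusted p = 0.750). With 10 libraries the SE was 0.716 and the adjusted p was 0.227. Over those 10 libraries its SD was larger than that of 99.1% of the genes tested. The gene (ENSMUSG00000006777) lies on chromosome 11, 99477974 to 99493137, minus strand, 647673 bases from Krt19.

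Krt19 and Krt7, the keratins that set bile duct cells apart from hepatocytes, were low. Krt19 (ENSMUSG00000020911, chromosome 11, 100140810 to 100148665, minus strand) stood at 1.08, 2.05 and 1.58 FPKM in KOHF, which is 31, 62 and 44 reads, and at 0.707, 0.937 and 0.606 FPKM in KOVC, which is 18, 30 and 15 reads. Every KOHF library was higher than every KOVC library. The log2 difference was 0.54 and did not pass (SE 0.558, adjusted p = 0.829 with 12 libraries; SE 0.366, adjusted p = 0.360 with 10).

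Krt19 ranged more widely in the wild-type libraries, at 0.464, 1.85 and 3.90 FPKM in WTHF and 6.31, 0.876 and 0.539 FPKM in WTVC. WTVC1 held the highest value of the series, and neither of the other WTVC libraries exceeded the highest KOVC library. The comparison of KOVC with WTVC thus rests on that library. It gave −0.66 with 12 libraries (SE 0.558, adjusted p = 0.476), −2.07 against WTVC1 alone (SE 0.517, unadjusted p = 0.00293, adjusted p = 1) and 0.04 when WTVC1 was left out. The same library held 17.2 FPKM of Dmbt1, a mucosal glycoprotein gene of duct and gut epithelium, against at most 0.554 FPKM in the other 11 libraries.

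Krt7 (ENSMUSG00000023039, chromosome 15, 101411043 to 101430313, plus strand) stood at 0.269, 0.637 and 0.304 FPKM in KOHF, 0.128, 0.237 and 1.35 FPKM in WTHF, 0.303, 0.469 and 0.218 FPKM in KOVC and 0.637, 0.363 and 0.0296 FPKM in WTVC. All 4 groups overlapped. WTHF3 was highest, with 97 reads, and it was also the highest WTHF library for Krt19. Together Krt7 and Krt19 summed to 1.35, 2.69 and 1.89 FPKM in KOHF and to 1.01, 1.41 and 0.824 FPKM in KOVC, against sums of Krt8 and Krt18 of 531, 670.2 and 339.5 FPKM and of 292, 334 and 327 FPKM in the same libraries. In the 10 libraries the bile duct pair made up 0.251% to 2.27% of the summed FPKM of these 4 keratins.

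Epcam, an adhesion protein of duct and progenitor cells, and Cldn7, a claudin of tight junctions that binds EpCAM, showed the smallest p-values of the set between KOHF and KOVC. Cldn7 (ENSMUSG00000018569, chromosome 11, 69964779 to 69967885, plus strand) stood at 1.07, 1.06 and 0.382 FPKM in KOHF, which is 26, 27 and 9 reads. In KOVC it stood at 0.186, 0.369 and 0 FPKM, which is 4, 10 and 0 reads. The count of 0 in KOVC3 allows up to 0.143 FPKM (3 reads, counting error only). The groups did not overlap in FPKM, but in reads they did, with 9 in KOHF3 and 10 in KOVC2.

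The log2 difference of Cldn7 was 0.62. It had an unadjusted p of 0.0433 and an adjusted p of 0.649 in limma with 12 libraries (SE 0.270). With 10 libraries the adjusted p was 0.0779 (SE 0.197), still above the threshold of 0.05. With the 12 libraries weighted by their spread in limma it passed (0.67, adjusted p = 0.0228), in a fit where 4.83% of all genes passed upward and 14.9% downward. WTHF held 0.627, 0.343 and 0.724 FPKM and overlapped KOHF, and WTVC held 1.55, 0.278 and 0.727 FPKM.

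Epcam (ENSMUSG00000045394, chromosome 17, 87635979 to 87651106, plus strand) stood at 0.757, 1.23 and 0.722 FPKM in KOHF, 0.999, 0.392 and 0.390 FPKM in WTHF, 0.425, 0.531 and 0.2497 FPKM in KOVC and 1.23, 0.572 and 0.178 FPKM in WTVC. KOHF was above KOVC in every library and overlapped both wild-type groups. The log2 difference between KOHF and KOVC was 0.44 (SE 0.251, adjusted p = 0.676 with 12 libraries; SE 0.181, adjusted p = 0.148 with 10). With library weights it passed as well in limma (0.55, adjusted p = 0.0447). Over the 10 libraries Epcam and Cldn7 had a Pearson correlation of 0.81, and over all 12 of 0.65.

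Tspan8, a tetraspanin of gut and duct epithelium (ENSMUSG00000034127, chromosome 10, 115817284 to 115849893, plus strand), was low outside WTVC, and close to even in KOVC alone. It stood at 0.435, 0.788 and 0.335 FPKM in KOHF, 0.515, 0.263 and 0.822 FPKM in WTHF, 0.448, 0.421 and 0.502 FPKM in KOVC and 1.82, 7.22 and 0.119 FPKM in WTVC. The difference between KOHF and KOVC was 0.05 on the log2 scale (95% interval −1.14 to 1.24 with 12 libraries, −0.32 to 0.42 with 10). WTVC1 and WTVC2 held the highest values of the series, at 51 and 207 reads.

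Sox9, the transcription factor of duct and progenitor cells (ENSMUSG00000000567, chromosome 11, 112782224 to 112787760, plus strand), stood at 3.69, 1.40 and 0.589 FPKM in KOHF and at 1.41, 3.30 and 2.03 FPKM in KOVC. In WTHF it stood at 0.784, 1.04 and 1.03 FPKM, below all KOVC libraries. WTHF and KOVC differ in both genotype label and diet, and the share of all genes that separate them was not counted. In WTVC it stood at 1.04, 3.82 and 0.176 FPKM. The log2 difference between KOHF and WTHF was 0.43 (SE 0.5002, adjusted p = 1), and KOHF1 and KOHF3 lay on either side of the whole WTHF range.

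Spp1, which encodes the secreted glycoprotein osteopontin, a product of duct cells and of macrophages (ENSMUSG00000029304, chromosome 5, 104435118 to 104441050, plus strand), stood at 16.4, 23.4 and 9.36 FPKM in KOHF, 12.9, 11.6 and 10.2 FPKM in WTHF, 8.67, 20.4 and 19.4 FPKM in KOVC and 16.5, 8.06 and 0.362 FPKM in WTVC. The 4 groups overlapped. The difference between KOHF and WTHF was 0.39 (95% interval −1.30 to 2.08 with 12 libraries, −0.42 to 1.19 with 10). Between KOHF and KOVC it was 0.02 (95% interval −1.67 to 1.71 with 12 libraries, −0.79 to 0.83 with 10).

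For the diet in the knockout-labelled libraries, 0 of the 9 tested members passed between KOHF and KOVC with limma and 12 libraries, and 1 of 9 had an unadjusted p under 0.05. Of all genes 0.155% passed upward and 0% downward, and 7.54% had an unadjusted p under 0.05 in either direction. With 10 libraries 0 passed and 3 of 9 were under 0.05 unadjusted (Cldn7, Epcam and Krt18), where 1.52% of all genes passed upward and 6.24% downward. In that fit 29.2% of all genes were under 0.05 unadjusted, so 3 of 9 is close to the share over all genes. With limma-voom on recovered reads 0 passed and 1 was under 0.05, as were 7.09% of all genes. Of the 9 members 8 had a positive difference with a median of 0.54, beside a median of −0.06 over all genes tested. The FPKM ranges did not overlap for 4 of the 9, all higher in KOHF (Krt18, Krt19, Epcam and, though not in reads, Cldn7). Of all genes 9.98% were higher in every KOHF library and 21.6% were lower.

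For the genotype label on the high fat diet, 0 of 9 passed between KOHF and WTHF with 12 libraries, 10 libraries or limma-voom, and none was under 0.05 unadjusted in these 3 fits. Of all genes 0.155% passed upward and 0% downward with 12 libraries, and 0.18% and 0% with 10. Under 0.05 unadjusted were 1.27% of all genes with 12 libraries, 12.5% with 10 and 1.03% with limma-voom. None of the 9 had ranges that did not overlap, where 7.37% of all genes were higher and 12.4% lower in every KOHF library. The differences ran from −0.14 for Krt23 to 0.61 for Krt18, with a median of 0.27 beside −0.03 over all genes.

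For the genotype label on chow, 0 of 9 passed between KOVC and WTVC with limma and 12 libraries, none was under 0.05 unadjusted, and 0% of all genes passed in either direction, while 21.1% were under 0.05 unadjusted. With 10 libraries 0 passed and 4 were under 0.05 unadjusted (Cldn7, Krt19, Tspan8 and Epcam, all lower than in WTVC1), where 0% of all genes passed upward and 0.00816% downward and 2.8% were under 0.05 unadjusted. Limma-voom had 1 of 9 under 0.05, beside 20% of all genes. With all 3 WTVC libraries no member separated the groups, where 12.4% of all genes were higher and 4.43% lower in every KOVC library. Against WTVC1 alone, KOVC was higher in every library for Krt8 and Sox9 and lower for Krt19, Krt23, Epcam, Tspan8 and Cldn7, where 34.3% of all genes were higher and 17.8% lower.

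For the diet in the wild-type libraries, 0 of 9 passed between WTHF and WTVC with limma and 12 libraries, none was under 0.05 unadjusted, and 0% of all genes passed in either direction, while 14.7% were under 0.05 unadjusted. With 10 libraries 0 passed and 3 were under 0.05 unadjusted (Tspan8, Krt19 and Cldn7, all lower than in WTVC1), where 0% of all genes passed upward and 0.00816% downward and 2.38% were under 0.05 unadjusted. Limma-voom had none under 0.05, beside 14.3% of all genes. No member separated WTHF from all 3 WTVC libraries, where 6.82% of all genes were higher and 4.35% lower. Against WTVC1 alone, WTHF was higher for Krt23 and lower for Krt19, Epcam, Sox9, Spp1, Tspan8 and Cldn7, where 24.4% of all genes were higher and 21.5% lower.

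The difference between the genotype effects on the 2 diets was tested as an interaction, (KOHF minus WTHF) minus (KOVC minus WTVC). None of the 9 members passed with 12 libraries, 10 libraries or limma-voom, where 0.122% of all genes passed upward and 0% downward with 12 libraries, and 0.0816% and 0% with 10. None was under 0.05 unadjusted with 12 libraries or limma-voom, where 16.6% and 16.8% of all genes were, and 4 of 9 were with 10, where 10.2% of all genes were. Averaged over both diets or both genotypes, 0 of 9 passed as well, where 0.0653% of all genes passed upward and 0% downward in either contrast with 12 libraries. With 10 libraries 0.049% passed upward and 0.00816% downward for KO against WT, and 0.0653% and 0.049% for HF against VC. Under 0.05 unadjusted with 10 libraries were 3 of 9 members and 2.55% of all genes for KO against WT, and 1 of 9 and 12.1% for HF against VC. No member was with 12 libraries or limma-voom, where 2.58% and 3.49% of all genes were for KO against WT and 4.51% and 5.07% for HF against VC. Exact two-sided permutation tests of 6 against 6 libraries within the levels of the other factor, 20 in all for the 10 genes, gave p from 0.13 (Spp1, KO minus WT 0.91 on the log2 scale) to 0.86. The smallest p this design allows is 0.005.

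**Figure D3:**
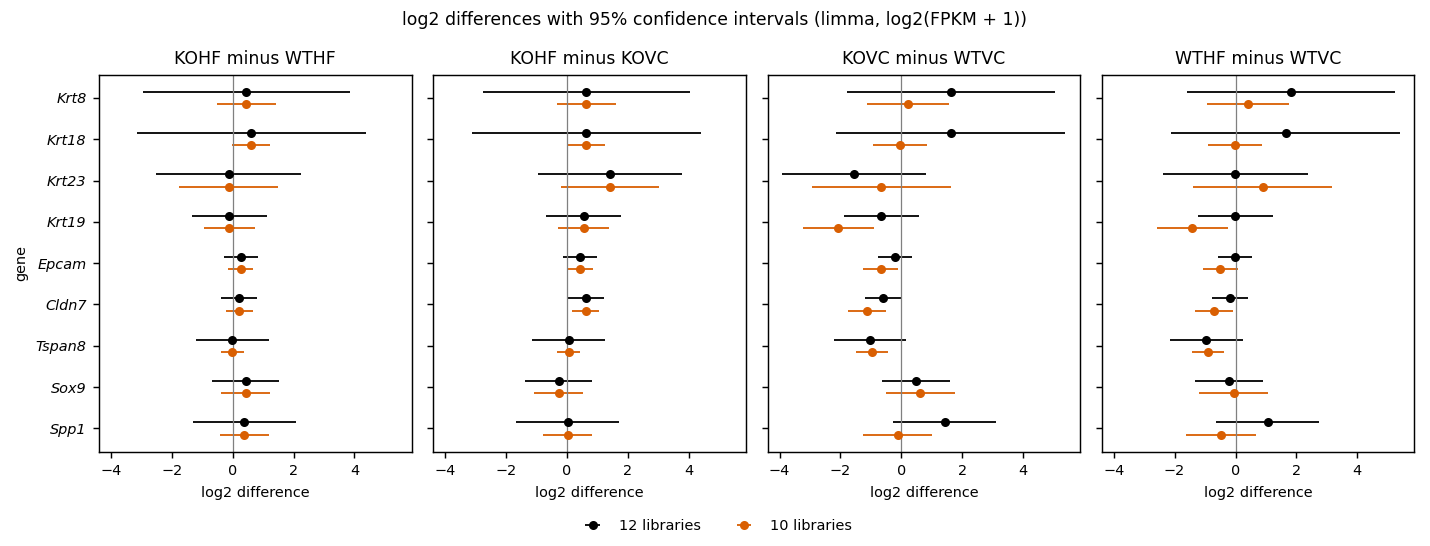
log2 differences with 95% confidence intervals (limma on log2(FPKM + 1)) for the 9 tested genes in 4 comparisons, fitted with 12 libraries (black) and with the 10 left without WTVC2 and WTVC3 (orange). No adjusted p fell under 0.05 in these 2 fits, and the intervals narrow most for Krt8 and Krt18 when those libraries are left out.

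The members did not peak in 1 library. Of the 10 libraries, KOHF2 was highest for 4 members, WTVC1 for 3 (Krt19, Tspan8 and Cldn7), KOHF1 for 2 (Krt23 and Sox9) and WTHF3 for Krt7. The set varied more between libraries than most genes, with a median SD of 0.469 on the log2 scale for its 9 tested members, beside 0.252 for all genes tested.

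KOHF1 shared high values with WTVC2 for part of the set, a pattern picked out after the values were seen. Krt23 stood at 14.98 FPKM in KOHF1 and 44.9 FPKM in WTVC2, with a median of 2.88 FPKM and a highest value of 9.20 FPKM in the 9 libraries left without WTVC2, WTVC3 and KOHF1. Sox9 stood at 3.69 FPKM in KOHF1 and 3.82 FPKM in WTVC2, with a median of 1.04 FPKM in the 9, but KOVC2 came close to them at 3.30 FPKM. Krt8 and Krt18 were above the median of the 9 in both, but KOHF2 exceeded KOHF1. Other members went apart in KOHF1 and WTVC2: Tspan8 (0.435 and 7.22 FPKM, median 0.502), Cldn7 (1.07 and 0.278 FPKM, median 0.382) and Spp1 (16.4 and 8.06 FPKM, median 12.9). Krt19 was below its median of 1.58 FPKM in both, at 1.08 and 0.876 FPKM. Genes outside the set shared the pattern: Prom1, a surface protein of progenitor cells, stood at 6.81 FPKM in KOHF1 and 16.4 FPKM in WTVC2 with at most 0.298 FPKM in the 9, and Tead2, a partner of the Hippo pathway effector YAP, at 6.76 FPKM in KOHF1 and 10.3 FPKM in WTVC2 with at most 0.368 FPKM. Without KOHF1 the difference between KOHF and KOVC was 0.76 for Krt23, against 1.41 with it, and −0.69 for Sox9, against −0.27 with it.

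Genes with the most similar pattern over the 10 libraries, by Pearson correlation of log2(FPKM + 1), differed from member to member. Krt8 lay closest to Cd83 (0.96), Ifi27l2b (0.96) and Ubd (0.96), and Krt18 to Cars2 (0.95), Slc48a1 (0.94) and Spg7 (0.94). Krt23 lay closest to Slc25a11 (0.94), Sox9 to Tmem138 (0.94) and Spp1 to Stambp (0.89). Tspan8 lay closest to Car4 (0.90) and Dmbt1 (0.87), and Krt19 to Adap1 (0.88), while Cldn7 was the third gene for Epcam (0.81) and Epcam the third for Cldn7. The likeness of Tspan8 to Car4 and Dmbt1 rests largely on WTVC1. Car4 and Dmbt1 stood there at 0.563 and 17.2 FPKM, with at most 0.0878 and 0.476 FPKM in the rest of the 10. Car4 passed the abundance filter only through WTVC3 (16.9 FPKM), which is outside the 10. Ubd, a ubiquitin-like gene induced by interferon and tumour necrosis factor, held 7.76, 16.1 and 1.40 FPKM in KOHF, 0.505, 2.58 and 16.4 FPKM in WTHF and 1.73, 2.12 and 1.64 FPKM in KOVC. The points share depth and tissue makeup, and each of these correlations was lower with all 12 libraries. That of Krt8 with Ubd was then 0.31 and that of Krt18 with Slc48a1 0.07, and the sign turned for Krt18 with Cars2 (−0.69) and Spg7 (−0.15), Tspan8 with Car4 (−0.24) and Krt19 with Adap1 (−0.10). Those of Krt23 with Slc25a11 (0.85), Spp1 with Stambp (0.81) and Sox9 with Tmem138 (0.78) were lowered less than these.

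The same comparison of KOHF with KOVC was read for other genes of bile duct cells. Of 28 listed, 16 were tested, 0 passed with 12 libraries (none under 0.05 unadjusted), and 6 of 16 had a positive difference with a median of −0.12. With 10 libraries, where 6.24% of all genes passed downward, 1 of 16 fell, which is near that share. It was Onecut2, a factor of duct development, at 4.38, 4.15 and 4.21 FPKM in KOHF and 9.28, 7.71 and 6.69 FPKM in KOVC (log2 difference −0.75, SE 0.131, adjusted p = 0.0306). Cftr, the chloride channel of bile duct cells, held at most 0.106 FPKM in any library, and Pkhd1, the fibrocystin gene, stood at 0.550, 0.428 and 0.175 FPKM in KOHF and 0.522, 0.579 and 0.320 FPKM in KOVC. The 28 genes summed to 371 FPKM in KOHF1, 192 and 149 FPKM in KOHF2 and KOHF3 and 164 to 182 FPKM in KOVC. Tm4sf4 alone held 262 FPKM in KOHF1 and 288 FPKM in WTVC2, with at most 103 FPKM in the 9 libraries without these and WTVC3.

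Of 24 Notch and Hippo pathway genes, which direct duct fate and Sox9, 19 were tested. None passed between KOHF and KOVC with 12 libraries (1 under 0.05 unadjusted), and 3 of 19 had a positive difference (median −0.34). With 10 libraries 2 of 19 fell, beside 6.24% of all genes, and they were the Hippo kinases Lats1 (2.45, 2.73 and 2.56 FPKM in KOHF, 5.77, 5.46 and 4.71 FPKM in KOVC, log2 difference −0.82, adjusted p = 0.0277) and Lats2 (log2 difference −0.57, adjusted p = 0.0412). Of 35 genes of epithelial junctions and polarity, 26 were tested and 0 passed with 12 libraries (1 under 0.05 unadjusted). With 10 libraries 1 of 26 fell, a smaller share than the 6.24% of all genes, and it was Lsr, a protein of tricellular junctions (17.4, 18.2 and 18.0 FPKM in KOHF, 27.7, 35.03 and 24.5 FPKM in KOVC, log2 difference −0.66, adjusted p = 0.0371).

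Partners of the keratin filament and osteopontin receptors were nearer to the median of all genes. Of 9 tested filament partners and other intermediate filaments 0 passed between KOHF and KOVC with either set of libraries (1 under 0.05 unadjusted in each, beside 7.54% of all genes with 12 libraries and 29.2% with 10), with a median of −0.07. Of 8 tested genes of osteopontin reception and processing 0 passed with either (1 under 0.05 unadjusted with 12 libraries and 2 with 10), with a median of −0.08.

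The other keratins, most of them genes of skin and other stratified epithelium, had differences of the opposite sign. Of 36 other keratin genes in the table, 9 were tested, and 9 of 9 had a negative difference between KOHF and KOVC (median −1.26). Of the 36, 20 were at 0 in all KOHF libraries. Keratins at or near 0 in KOHF could pass the abundance filter only through the other groups, so their signs and calls are description only. None passed with 12 libraries, with 7 under 0.05 unadjusted, and limma-voom called none, also with 7, beside 7.54% and 7.09% of all genes. With 10 libraries 3 of 9 fell, beside 6.24% of all genes: Krt14 (log2 difference −2.33, adjusted p = 0.0371), Krt6a (−1.39, adjusted p = 0.0411) and Krt5 (−1.26, adjusted p = 0.0450). Krt14, the type I keratin of basal cells, stood at 0, 0.0922 and 0 FPKM in KOHF, 4.40, 0.101 and 2.68 FPKM in WTHF, 3.54, 6.78 and 2.92 FPKM in KOVC and 7.52, 4.19 and 4.14 FPKM in WTVC. WTHF2 was thus as low as KOHF. Krt10, a keratin of suprabasal cells, was detected in all 12 libraries, at 2.45, 1.49 and 1.41 FPKM in KOHF and 1.83, 2.59 and 1.52 FPKM in KOVC.

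**Figure D4:**
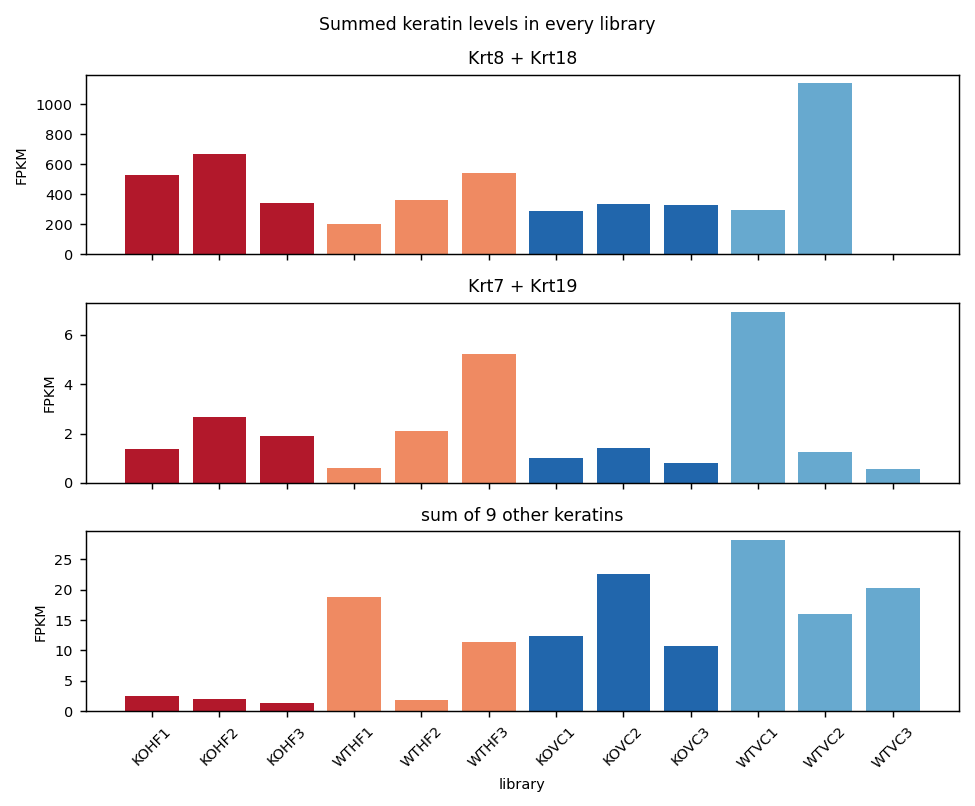
Summed FPKM per library (bars from 0) of Krt8 and Krt18, of Krt7 and Krt19 and of the 9 other keratins tested, coloured by group in the order KOHF, WTHF, KOVC, WTVC. The other keratins sum to 1.41 to 2.45 FPKM in KOHF and 1.94 FPKM in WTHF2 and to at least 10.7 FPKM in the other 8 libraries, an order the upper panels do not share.

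Markers of other tissues moved between the same groups. Of 12 pancreatic acinar markers 11 rose in KOHF over both KOVC and WTHF with 12 libraries, beside 0.155% of all genes in each comparison. The 12 summed to 123 to 165 FPKM in KOHF, 62.5 to 84.0 FPKM in WTHF and 40.4 to 68.3 FPKM in KOVC. No read was found in any WTHF library for 9 of the 12, and in any KOVC library for 8. The sums of WTHF and KOVC thus rest on few of the genes. Of 12 intestinal markers 5 were tested and 1 rose with 12 libraries, beside 0.155% of all genes. It was Defa24, a Paneth cell defensin (8.56, 2.99 and 2.84 FPKM in KOHF, 0 in all WTHF and KOVC libraries). With 10 libraries 3 of the 5 rose, where 1.52% of all genes did between KOHF and KOVC. Acinar or gut markers at 0 in WTHF and KOVC could pass the abundance filter only through KOHF or WTVC, so their calls are description only. The 12 intestinal markers summed to 82.3 to 189 FPKM in KOHF, 96.2 to 123 FPKM in WTHF and 52.0 to 71.3 FPKM in KOVC. Among them 6 were at 0 in all WTHF libraries and 4 in all KOVC libraries. Vil1, a defining gut marker, stood at 0.512, 0.334 and 0.326 FPKM in KOHF and 0.0396, 0.0946 and 0.0408 FPKM in KOVC, while Cdx1 was at 0 in KOHF2 and KOHF3 and Cdx2 at 0 in KOHF2. Epithelium of gut and pancreatic ducts also expresses Krt8, Krt18, Krt19, Epcam and Cldn7, and the part of these tissues in the differences of the members was not tested.

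Of 14 macrophage markers, a second source of Spp1 RNA, 13 were tested and 0 passed between KOHF and KOVC with limma (1 under 0.05 unadjusted with 12 libraries, 7 with 10), with a median of 0.67 and 11 of 13 positive. Of all genes 7.54% were under 0.05 unadjusted with 12 libraries and 29.2% with 10. Their sum was 168 to 276 FPKM in KOHF, 141 to 404 FPKM in WTHF, 98.1 to 140.4 FPKM in KOVC and 83.1 to 326 FPKM in WTVC, with none of the 14 at 0 in KOHF, WTHF or KOVC. Mesothelium, whose cells express Krt7, Krt8, Krt18 and Krt19, was highest in WTHF3: its 8 markers summed to 3.13 to 9.74 FPKM in KOHF, 2.32 to 37.7 FPKM in WTHF, 5.46 to 8.87 FPKM in KOVC and 0.840 to 2.45 FPKM in WTVC. In WTHF3 Msln stood at 7.69 FPKM and Upk3b at 15.9 FPKM, in the library with the highest Krt7 and the second highest Krt19 of the 12. The part of macrophages and mesothelium was not tested. The 10 hepatocyte markers summed to 35228 to 49826 FPKM in KOHF, 55665 to 63490 FPKM in WTHF, 42727 to 43204 FPKM in KOVC and 18.8 to 50333 FPKM in WTVC. The list of stratified epithelium shares Krt1, Krt5, Krt10 and Krt14 with the other keratins, so its counts below partly repeat theirs. Of 8 heart muscle markers, 4 were at 0 in all KOHF libraries. Heart markers at 0 there could pass the abundance filter only through other groups, so their calls are description only. Of the other lists, 0 of 10 tested stellate cell markers and 0 of 6 tested brown fat markers passed between KOHF and KOVC with 12 libraries (1 and 0 under 0.05 unadjusted) or with 10 (1 and 2). Of 6 tested heart muscle markers and 8 tested stratified epithelium markers 0 passed with 12 libraries (5 and 4 under 0.05 unadjusted), while with 10 libraries 1 and 2 fell, beside 6.24% of all genes.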

How the data were processed

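RNA sequencing of 12 mouse liver samples was analysed, in 4 groups of 3 taken from the labels. The deposited values are FPKM computed by the authors for 35275 genes, and the table adds gene lengths, positions and gene types. The submitters' processing notes name the builds GRCm38 and mm10 and, in no stated order, TopHat and STAR, CASAVA, DESeq2 (with a version of 2) and HTSeq 0.6.1. Which aligner, annotation and strand setting gave the values is not given in the sources used here. Read counts behind the deposited values were recovered by undoing the division by gene length, and 100% of values came within 0.1 of a whole read, in totals of 15705196 to 20311766 per library. No library of a group repeated another (chi-square per gene of at least 41.3 on average).

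Values were taken as log2(FPKM + 1) from the deposited FPKM, which understates changes of low genes. Genes with a mean of at least 0.5 FPKM (12251) entered 1 limma fit of the 4 groups (version 3.58.1 in R 4.3.3, with a trend). Benjamini-Hochberg adjustment was over all genes, with a threshold of 0.05. The fit was also run on simulated data in which no library stood apart, so that run does not cover the spread of WTVC2 and WTVC3. All 10 members were named. Of each list, up to 4 genes past the threshold could be named, or up to 3 abundant ones, with the defining cell type markers. For likeness the 3 genes with the highest correlation over 10 libraries were taken, leaving out predicted and clone-named genes. Cftr, Pkhd1, Tm4sf4, Prom1, Tead2, Dmbt1, Krt10 and Ubd were given beyond the count of such names, chosen with their values seen. The members and all lists were chosen with earlier results of these data known. Adgre1 was matched by gene ID, and promoter sequences came from RefSeq. Alternatives covered the pseudocount, the filter, scaling, limma-voom on recovered reads, the libraries fitted, a replicate block and library weights. Python 3.11.15 and matplotlib 3.10.9 made the figures.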

Additional observations from a re-analysis of the deposited data

How the results depend on the processing

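Across the 25 alternatives to the fit with 12 libraries, the tested members passed the threshold in 3 places. Library weights called Cldn7 (0.67, adjusted p = 0.0228) and Epcam (0.55, adjusted p = 0.0447) between KOHF and KOVC, where they called 2420 genes in all (4.83% of those tested upward, 14.9% downward), and leaving out WTVC1 called Spp1 between KOVC and WTVC (2.20, adjusted p = 0.0449), where 2981 genes passed (16.6% upward, 7.76% downward). The cause was not tested. WTVC1 is the only WTVC library close to the other groups, so counts without it rest on WTVC2 and WTVC3.

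The number of all genes past the threshold depended on the processing. As reported it was 19 for KOHF minus WTHF, 0 for KOVC minus WTVC (2584 under 0.05 unadjusted), 0 for WTHF minus WTVC (1807 under 0.05 unadjusted), 19 for KOHF minus KOVC, 15 for the interaction, 8 for KO minus WT over both diets and 8 for HF minus VC over both genotypes. In the same order of comparisons, a pseudocount of 0.01 gave 11, 2, 2, 8, 4, 4 and 5, and a pseudocount of 0.1 gave 6, 3 and 3 in the last 3. Testing every gene with a read gave 4 for KOVC minus WTVC, 31 for KOHF minus KOVC and 25, 18 and 18 in the last 3, and a filter of 2 FPKM gave 3 and 3 for the KOHF comparisons and 1 in each of the last 3. Limma-voom gave 12 for KOHF minus KOVC and 0 in the last 3. Without WTVC2 and WTVC3 the count was 1 and 1 for the WTVC comparisons, 951 for KOHF minus KOVC (186 higher, 765 lower) and 14 for HF minus VC. Without KOHF1 as well it was 3, 3, 39, 24, 20 and 29 in the last 6. Library weights gave 33, 2420, 7, 4 and 4 for the KOHF comparisons and the last 3.

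Replicate numbers are shared between groups, but same-numbered libraries deviated together with correlations of −0.190 to 0.131, so the numbers were not taken to pair samples. A replicate block gave 18, 0, 0, 17, 4, 4 and 4 genes and called no member.

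Leaving out 1 library at a time gave 0 to 2981 genes for KOVC minus WTVC, 0 to 2435 for WTHF minus WTVC, 5 to 2265 for the interaction, 5 to 787 for KO minus WT and 5 to 685 for HF minus VC, each highest without WTVC1. For the members whose sign changed, the log2 differences of KOHF minus WTHF ran from −0.56 to 0.32 for Krt19, −0.012 to 0.83 for Krt8, −0.78 to 0.83 for Krt23 and −0.14 to 0.12 for Tspan8. Those of KOHF minus KOVC ran from −0.69 to 0.090 for Sox9, −0.35 to 0.35 for Spp1 and −0.073 to 0.14 for Tspan8. Those of KOVC minus WTVC ran from −1.09 to 0.039 for Krt19, −0.70 to 3.27 for Krt8, −1.02 to 3.45 for Krt18 and −0.42 to 0.038 for Epcam. Those of WTHF minus WTVC ran from −0.44 to 0.69 for Krt19, −0.51 to 3.45 for Krt8, −1.01 to 3.47 for Krt18, −0.89 to 1.33 for Krt23, −0.25 to 0.21 for Epcam, −0.69 to 0.33 for Sox9, −0.0078 to 1.83 for Spp1 and −0.43 to 0.067 for Cldn7.

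Other settings turned the sign of further differences, some near 0 and some larger. For KOHF minus WTHF, Krt19 (−0.11) was 0.020 with a pseudocount of 0.01, 0.053 with limma-voom, 0.038 with 9 libraries and 0.11 with weights, and Tspan8 (−0.01) was 0.00177, 0.0128, 0.0027, 0.042, 0.018, 0.027 and 0.24 with pseudocounts of 0.1 and 0.01, median-of-ratios scaling, quantile normalization, limma-voom, 9 libraries and weights. For KOHF minus KOVC, rescaling to TPM gave −0.17 for Spp1 and −0.021 for Tspan8 while it moved the median of all genes to −0.23, so that relative to the median they were 0.06 and 0.20, and 9 libraries gave −0.022 for Spp1. For KOVC minus WTVC, 10 and 9 libraries gave −0.030 for Krt18 and −0.12 for Spp1. For WTHF minus WTVC, 10 and 9 libraries gave −0.010 for Krt18, −0.48 for Spp1 and 0.89 for Krt23. With 12 libraries these were 1.65, 1.06 and −0.0057. In that comparison pseudocounts of 0.1 and 0.01 and TPM gave 0.047, 0.056 and 0.077 for Krt19, 0.18, 0.21 and 0.17 for Krt23 and 0.033, 0.088 and 0.021 for Epcam. Limma-voom gave 0.16 for Krt23, 0.068 for Epcam and 0.0022 for Sox9, weights gave 0.29 for Krt23, and a pseudocount of 0.01 gave 0.071 for Sox9. The median log2 ratio of Krt8 to Krt18 moved by less than its SD over all 12 libraries, a spread that WTVC3 (1.44) widens. A ratio of recovered reads also carries the difference in gene length (1805 and 1400 bases). Krt7, Cldn7, Epcam and Tspan8 rest on few reads in most libraries, which limits what can be told apart.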
